A study of Caenorhabditis elegans with 20 samples.

Results

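The genes described here are the bath, btb and math genes of the nematode Caenorhabditis elegans, which encode proteins with a BTB domain, a MATH domain or both. They were taken as every gene whose symbol in the array's probe table consists of bath, btb or math, a hyphen and a number. That rule found 101 genes on 126 array features, out of 16378 genes on 17461 features that the table assigns to a gene. They are 35 bath, 21 btb and 45 math genes, and a gene with more than 1 feature is represented by the feature of highest mean log2 signal over all samples.

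The study asked which mRNAs are microRNA targets, by recovering RNA held by AIN-1 or AIN-2, which are the GW182 proteins of this worm. RNA of 20 samples of mixed-stage worms was hybridised to spotted DNA microarrays. From N2, the wild-type strain, RNA came from an immunoprecipitate (IP) with AIN-1 antibody (n = 3), from a control IP with preimmune serum (n = 3) and from total lysate (n = 2). From a single-copy integrated line that carries AIN-2::GFP, a fusion of AIN-2 with green fluorescent protein, RNA came from an AIN-2::GFP IP (n = 3) and from total lysate (n = 3). The control strain was an injection line that carries GFP alone under the ain-2 promoter, with RNA from a GFP IP (n = 3) and from total lysate (n = 3). Each transgenic strain is thus represented by 1 line, and AIN-2::GFP and GFP are present only in cells where those transgenes are active. The series text calls the samples independent biological replicates, and each was labelled with Cy3 or Cy5.

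BTB domains bind the cullin CUL-3, the scaffold of a family of ubiquitin ligases, and a MATH domain or another interaction domain on the same protein can hold the protein to be ubiquitinated. MEL-26, the best described worm protein of this kind, brings the katanin subunit MEI-1 to CUL-3 after meiosis, so that the meiotic microtubule-severing activity is removed from the embryo. Genes of both domain families are numerous in C. elegans, lie largely in clusters of neighbouring copies, and for most of them no function is known. AIN-1 and AIN-2 bind the Argonaute proteins that carry microRNAs, and an mRNA held by them is recovered in the IP together with RNA that sticks to the beads or the antibody.

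Signal is given throughout as log2 of the quantile-normalized intensity in units of the sample mean, and each of 20 samples had its own background limit, set from 1327 chemoreceptor features. Values below a floor of -5.74 were set to that floor, so samples at -5.74 have no order among themselves. Control IPs were dim: the mean signal was 9, 40 and 47 scanner units in preimmune IP replicates 1, 2 and 3 and 370, 46 and 12 in GFP IP replicates 1, 2 and 3, against 241 to 907 in the other 14 samples. Their limits lay correspondingly high, at 0.54, -1.69 and -1.58 on the log2 scale in the preimmune IP and at -3.45, -1.67 and -1.32 in the GFP IP, against -4.52 to -3.15 in the others. Replicates correlated over the tested BTB and MATH genes at 0.838 to 0.889 in the AIN-1 IP and at 0.396 to 0.606 in the preimmune IP. Total RNA was checked against markers of the tissues a whole worm should hold, and muscle, germline and oocyte markers were above the limit in all 8 total RNA samples, with elt-2 (intestine), ric-4 (neurons), bli-1 (cuticle) and spe-9 (sperm) not above it in every one. Brightness of different spots depends on the spotted DNA, so levels are compared between samples for a gene and not between genes.

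Most BTB and MATH genes gave little signal on these arrays. In N2 total RNA 43 of the 101 genes (42.6%) were above the limit in both samples, against 53.7% of all gene features, and in total RNA of the AIN-2::GFP and promoter GFP strains 26 (25.7%) and 21 (20.8%) were above it in every sample, against 46.2% and 41.5%. In the AIN-1 IP 24 genes (23.8%) were above the limit in all 3 samples and in the AIN-2::GFP IP 23 (22.8%), where 43.9% and 39.3% of all features were. In the preimmune IP 3 genes (2.97%) were, against 6.28% of all features, and in the GFP IP 6 (5.94%), against 18.4%. Over all 20 samples 30 genes were above the limit in no sample, 30 in 1 to 5 samples and 27 in at least 10. Of the 101 genes, bath-42 alone was above it in all 20.

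**Figure D1:**
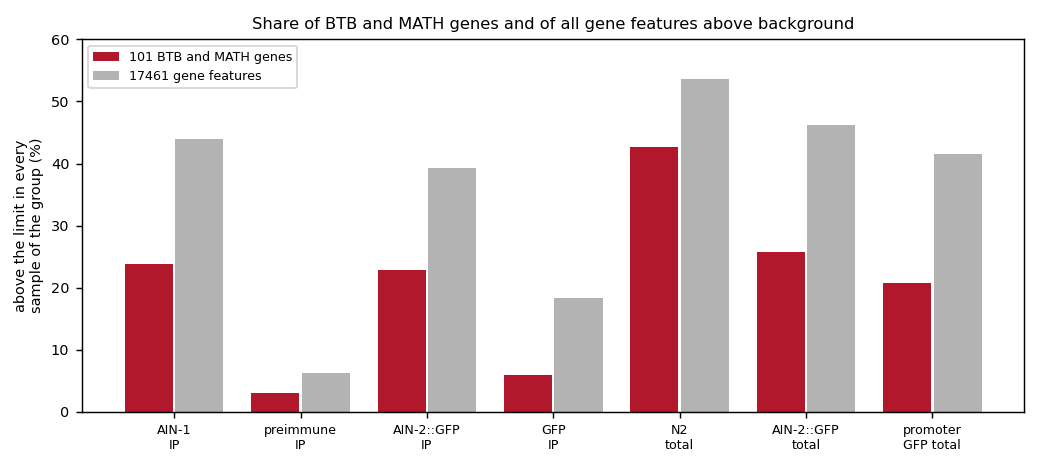
Share (%) of the 101 BTB and MATH genes (red bars) and of all 17461 gene features (grey bars) above the background limit in every sample of a group, for the 7 groups on the x axis. The red bar is the shorter one in each group, with 42.6% against 53.7% in N2 total RNA and 23.8% against 43.9% in the AIN-1 IP.

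A low-signal filter at the 30th percentile of the mean left 12222 features for testing, among them the features of 65 BTB and MATH genes (25 bath, 12 btb and 28 math genes). The other 36 genes were too dim to be tested. By their entry in NCBI's RefSeq annotation of assembly WBcel235, 99 of the 101 genes could be placed and bath-34 and bath-35 could not. Of the 99 genes, 86 lie on chromosome II, 5 on III, 3 each on I and V, and 1 each on IV and X. Of the same 99, 16 are annotated as pseudogenes, and 7 of these passed the filter.

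On chromosome II the genes form runs in which no more than 5 other genes separate a member from the next. The longest run starts at math-15 and ends at bath-2, with 21 members among 27 genes, and the next runs from math-47 to math-1, with 19 members among 30 genes. Of these, 13 and 9 were tested. A run of 7 members from bath-28 to bath-9 holds bath-27, bath-28, bath-29 and bath-30, which are described below, and btb-19 lies next to btb-20. By contrast btb-5 and bath-42 stand alone on chromosome III and bath-37 alone on IV, with no other gene of the families within that distance. Copies of such families can share sequence, and a spot may have caught RNA of a near relative, which was not tested here.

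The main test was limma's moderated linear model over all 12222 features and 20 samples, with a mean per group and a term for dye, and a difference passed at a Benjamini-Hochberg adjusted p under 0.05. Differences are in log2 units with the standard error of the fit after ±. Where no sample of the dimmer group was above its limit only a lower bound is given, as "at least N-fold": the brighter group's mean against the mean of the dimmer group's limits, or of its own signal where that was higher. No fold is given where that bound fell under 1 or where neither group was above the limit.

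The first comparison asked which of these mRNAs were enriched with AIN-1 over their level in N2 worms. Against N2 total RNA 3 of the 65 tested genes rose (4.62%) and 6 fell (9.23%), where over all tested features 6.1% rose and 5.65% fell. In either direction 13.8% of the genes passed, against 11.8% of all features, so the families as a whole were near the background. The median difference of the 65 genes was 0.08, against 0.11 for all features.

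The gene with the smallest adjusted p in this comparison was btb-9, a BTB gene of a run of 5 members on chromosome II. Its signal was -1.98, -1.79 and -1.30 in AIN-1 IP replicates 1, 2 and 3, and -4.86 and -4.27 in N2 total RNA. All 3 IP samples were above their limit and above both total RNA samples, of which only replicate 2 exceeded its own limit. The difference was 2.95 ± 0.52 (limma adjusted p = 0.00246). With each of these 5 samples left out in turn it still passed, at adjusted p up to 0.0467.

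The BTB gene btb-5, which stands alone on chromosome III, behaved similarly against total RNA. It measured -0.42, -0.38 and -0.16 in the AIN-1 IP and -2.83 and -3.18 in N2 total RNA. Every IP sample lay more than 2 log2 units above both total RNA samples, and all 5 were above their limits. The difference was 2.70 ± 0.49 (limma adjusted p = 0.0028), and without N2 total RNA replicate 2 the adjusted p was 0.0598. The third riser, math-15 at the start of the longest run, was at the floor in both N2 samples and at -3.07, -4.03 and -3.71 in the AIN-1 IP, where it was above the limit in 1 of 3 samples. Its signal was at least 1.64-fold higher in the IP (limma adjusted p = 0.0483), and each of the 5 samples was needed for that call.

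Those rises cannot be fully told apart from whatever marks a set of samples, all IPs, that no label names. Whether arrays or IP content set these samples apart was not tested. Spots of 2 other genes, cdc-42 and asp-6, were above the limit in the 6 AIN-1 and preimmune IP samples, in AIN-2::GFP IP replicate 1 and in GFP IP replicate 1, and in no total RNA sample. With membership of that set of 8 samples as a covariate, the btb-9 difference was 2.50 (limma adjusted p = 0.0562), the btb-5 difference was 2.26 (adjusted p = 0.0631), and 0 of the 65 genes rose and 4 fell. Scaling by the sample mean alone, which moves the median of all features from 0.11 to -1.02, gave btb-9 1.81 (adjusted p = 0.0787) and 1 riser and 10 fallers, and cyclic loess gave 4 and 3. A fit of the 5 compared samples alone called 10 genes higher and 7 lower, 7 of them shared with the 9 above. Over all features that fit called 4218 of 12222, a larger share than among the 65 genes.

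**Figure D2:**
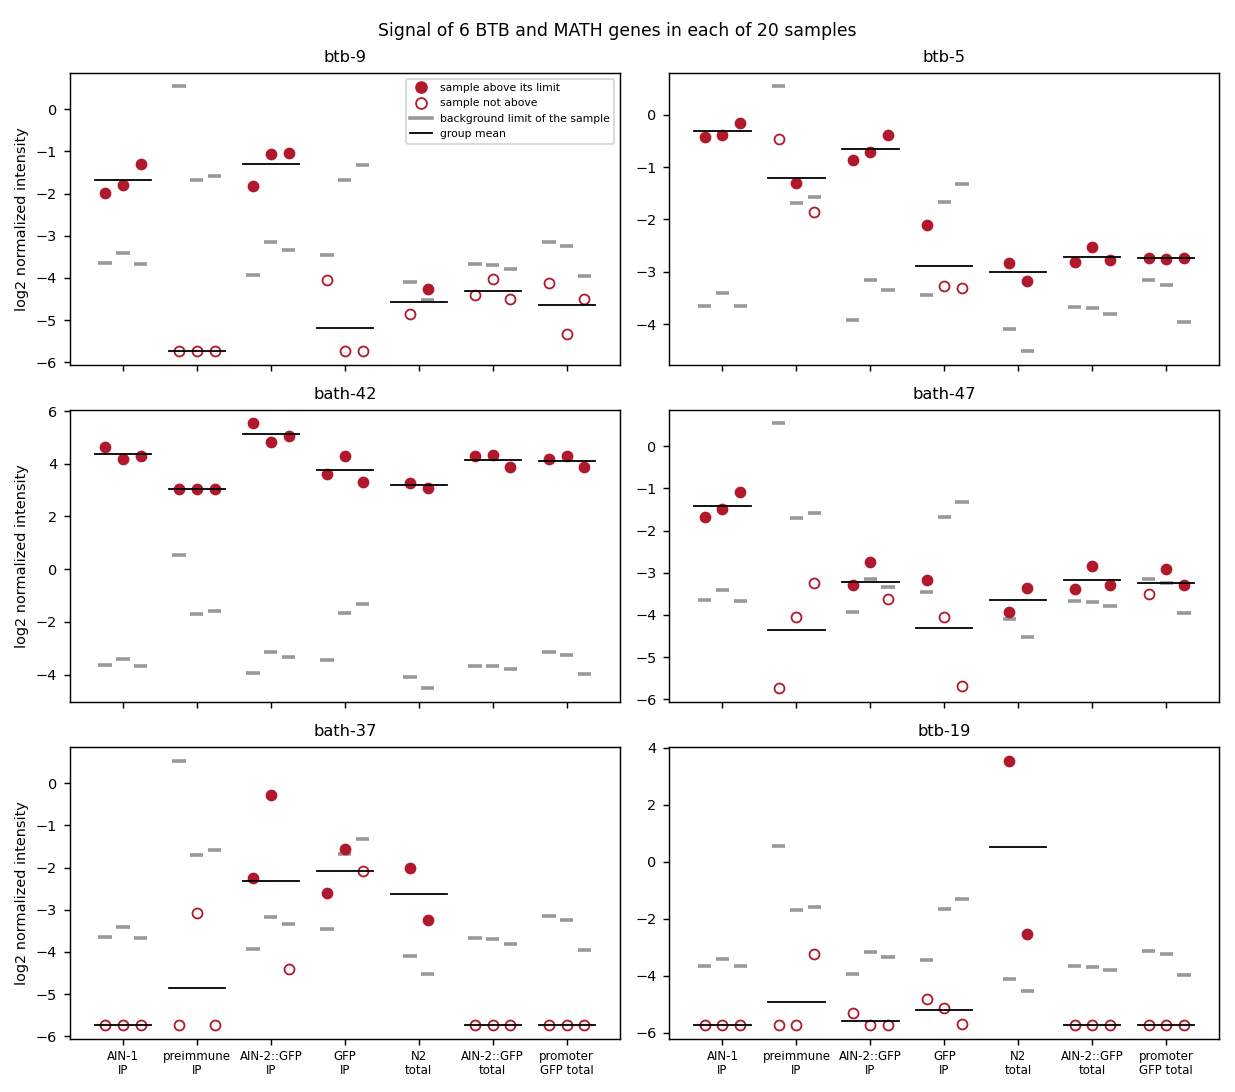
Signal (log2 normalized intensity, y axis) of btb-9, btb-5, bath-42, bath-47, bath-37 and btb-19 in each of the 20 samples, by group on the x axis. Points are samples in order of replicate number, filled where above the sample's background limit (grey dash), and black lines are group means; btb-9 lies between -1.98 and -1.03 in all 6 AIN IP samples and at -4.03 or lower in the other 14.

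Among the 6 genes that fell against N2 total RNA, btb-19 and its neighbour btb-20 are BTB genes at 1 place on chromosome II. N2 total RNA replicates 1 and 2 gave 3.55 and -2.54 for btb-19, and the AIN-1 IP samples were all at the floor. The N2 samples were both above their limit but differed from each other by about 6 log2 units. They also carried btb-19 past the low-signal filter, so its calls against N2 total RNA are not independent of that filter. The signal was at least 16.9-fold lower in the IP (limma adjusted p = 0.0028), with an adjusted p of 0.0645 without N2 total RNA replicate 1. For btb-20 the values were -3.29 and -3.08 in N2 total RNA and -4.87, -5.74 and -5.74 in the IP, at least 1.31-fold lower (limma adjusted p = 0.0437).

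From the run of bath genes on chromosome II, bath-29 measured -2.04 and -2.13 in N2 total RNA and -5.74, -4.50 and -5.74 in the AIN-1 IP. Its neighbour bath-30 measured -2.73 and -3.11 in N2 total RNA and was at the floor in all 3 IP samples. Neither gene was above the limit in any IP sample, while both N2 samples of each gene were above theirs. The IP signal was at least 2.81-fold lower for bath-29 (limma adjusted p = 0.00869) and at least 1.58-fold lower for bath-30 (adjusted p = 0.0175). The gene bath-37 on chromosome IV measured -2.01 and -3.24 in N2 total RNA and was at the floor in the IP, at least 1.93-fold lower (adjusted p = 0.0427). For bath-2, at the end of the longest run, the difference was -2.18 ± 0.64 (limma adjusted p = 0.0394), with 1 of 3 IP samples above the limit. The calls of bath-37 and btb-20 needed each of the 5 samples, that of bath-2 needed 4 of them, that of bath-30 needed 3 and that of bath-29 needed both N2 samples. Of 11 alternative settings 7 lost the call of bath-37.

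The preimmune IP served as the background of nonspecific recovery. Against N2 total RNA 4 tested genes rose in it and 6 fell, where 3.89% and 9.17% of all features did. The median was -0.10 for the 65 genes and -0.41 for all features. Among the risers, btb-5 measured -0.46, -1.31 and -1.86 in preimmune IP replicates 1, 2 and 3, of which replicate 2 was above its limit, a difference of 1.78 ± 0.49 from N2 total RNA (limma adjusted p = 0.0279). Thus btb-5 was higher in both IPs than in total RNA in the main test. Its preimmune call needed both N2 samples and was lost under 4 of 12 alternative settings, at limma adjusted p up to 0.604. The AIN-1 and preimmune IP signals of btb-5 differed by 0.92 ± 0.44, which did not pass (limma adjusted p = 0.184).

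Of the other risers in the preimmune IP, math-15 measured -1.17, -2.42 and -2.22 with no sample above its limit (limma adjusted p = 0.00233). math-5 measured 3.37, -3.45 and 0.40, a difference of 4.18 ± 1.23 (limma adjusted p = 0.0368), and bath-28 measured 3.47, -0.30 and -0.22, a difference of 2.81 ± 0.84 (adjusted p = 0.0402). Both were highest in preimmune IP replicate 1, the dimmest of the 20 samples. The call of math-5 was lost without that sample, and both calls were lost without either N2 sample. Genes that fell were btb-19 (at least 2.66-fold), math-41, bath-29, math-4, math-22 and math-23, with limma adjusted p from 0.00355 to 0.0471. None of the 6 was above the limit in a preimmune sample, and for the last 4 the limit was too high to give a fold. The fall of math-41 rests on N2 total RNA replicate 2: N2 total RNA gave -2.04 and 2.30, and preimmune IP replicates 2 and 3 lay above the lower of these values. The groups thus overlapped, and without that replicate the adjusted p was 0.713. For btb-19 the adjusted p without N2 total RNA replicate 1 was 0.125. Cyclic loess turned the split to 5 higher and 3 lower, and mean scaling alone to 2 and 8.

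Direct comparison of the AIN-1 IP with the preimmune IP, both from N2, called 5 genes higher and 4 lower. Over all features 9.44% were higher and 2.36% lower, and of the 65 tested genes 7.69% were higher and 6.15% lower. The median was -0.17 against 0.42 for all features. Mean scaling alone gave 4 higher and 6 lower, and cyclic loess 4 and 5.

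The 5 genes with more signal in the AIN-1 IP were btb-9, math-23, bath-47, bath-38 and bath-42. In the preimmune IP btb-9 was at the floor in all 3 samples, against a mean of -1.69 ± 0.35 (SD, n = 3) in the AIN-1 IP (limma adjusted p = 1.44e-04). No preimmune sample of btb-9 was above its limit, and those limits were higher on average than the AIN-1 IP signal, so no fold is given. The same holds for math-23, bath-47 and bath-38.

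For math-23, a gene of the longest run, the AIN-1 IP samples were at -2.10, -3.50 and -2.39 and the preimmune samples all at the floor (limma adjusted p = 3.98e-04). For bath-47 the AIN-1 IP gave -1.68, -1.49 and -1.08 and the preimmune IP -5.74, -4.06 and -3.24 (adjusted p = 0.0108). For bath-38 the values were -1.78, -1.98 and -1.81 against -5.74, -5.74 and -2.80 (adjusted p = 0.0157). In each of these 3 genes every AIN-1 sample lay above every preimmune sample. Against N2 total RNA bath-47 differed by 2.24 ± 0.73 (limma adjusted p = 0.0584), bath-38 by 0.85 ± 0.84 (adjusted p = 0.579) and math-23 by 0.60 ± 0.44 (adjusted p = 0.423), none of which passed.

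For bath-42, the gene seen in every sample, both IPs could be measured. It gave 4.65, 4.20 and 4.31 in the AIN-1 IP and 3.06, 3.03 and 3.05 in the preimmune IP. The groups did not overlap, and N2 total RNA at 3.29 and 3.08 lay with the preimmune samples. The difference between the IPs was 1.26 ± 0.37 (limma adjusted p = 0.0381), and that from N2 total RNA was 1.16 ± 0.41 (adjusted p = 0.0771), which did not pass. The call against the preimmune IP needed each of the 3 AIN-1 samples and preimmune IP replicate 2, with adjusted p up to 0.136 when 1 of them was left out.

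The 4 genes with less signal in the AIN-1 IP were bath-28 and bath-27, members of the same run, and math-26 and btb-20. bath-28 measured -2.24, -1.69 and -1.74 in the AIN-1 IP, against the preimmune values given above, a difference of -2.73 ± 0.77 (limma adjusted p = 0.032). bath-27 measured -1.91, -1.76 and -2.20 in the AIN-1 IP and 0.12, -0.30 and -0.40 in the preimmune IP, a difference of -1.79 ± 0.51 (adjusted p = 0.0341). The groups of both genes did not overlap, and preimmune samples above the limit numbered 3 for bath-28 and 2 for bath-27. No preimmune sample of math-26 (adjusted p = 0.0365) or btb-20 (adjusted p = 0.0371) was above its limit, and those of math-26 overlapped the AIN-1 IP.

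How far the 9 calls hold rests on the spread assumed for the dim control. With only the 6 compared samples in the fit, 0 of the 65 genes and 0 of 12222 features passed in limma, and 8 genes had an unadjusted p under 0.05. Same-numbered samples of both IPs deviated from their group means together, at correlations of 0.199 to 0.384. With each such pair as a block 6 genes were higher and 8 lower, all 9 calls above among them. Calls over all features rose as well in that fit, to 2023 of 12222 from 1443 in the main test. Without preimmune IP replicate 2 the counts were 7 and 7, and without AIN-1 IP replicate 1 or 3 there were 3 risers and no faller. The calls of btb-9, math-23 and bath-47 held when each of the 6 samples was left out in turn, at adjusted p up to 0.0489.

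**Figure D3:**
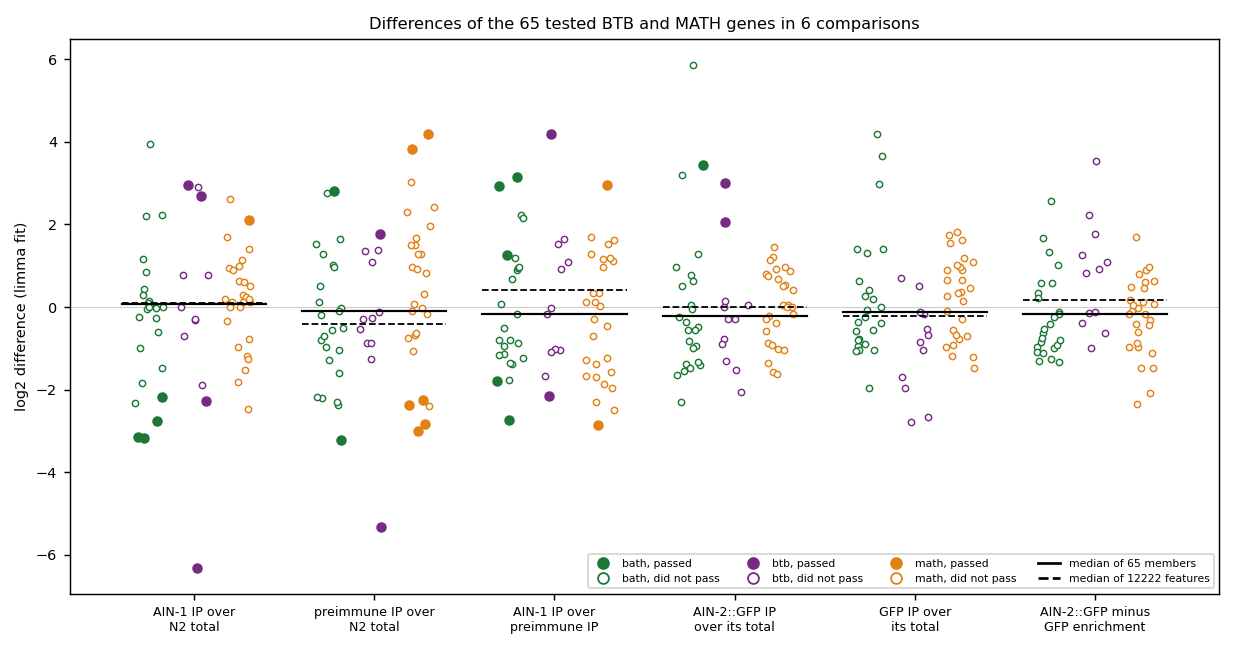
Log2 differences from the limma fit (y axis) of the 65 tested BTB and MATH genes in 6 comparisons (x axis), by family (bath, btb and math from left to right). Filled points passed an adjusted p under 0.05, and solid and dashed lines mark the medians of the 65 genes and of the 12222 features; a point shows the fitted difference, also where only a bound is given in the text. 3 points of the AIN-2::GFP comparison with total RNA are filled, all above 0, and none in the 2 right-hand comparisons.

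For AIN-2 the IP of the fusion was set against total RNA of the same strain. Here 3 of the 65 genes rose (4.62%) and 0 fell, where 2.79% of all features rose and 2.72% fell (5.51% in either direction). By unadjusted p under 0.05 in limma, 7 genes were higher and 5 lower, together 18.5% of the genes, against 19.8% of all features. The median was -0.22, against 0.00 for all features. The risers were btb-9, btb-5 and bath-37.

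In the AIN-2::GFP IP btb-9 measured -1.83, -1.07 and -1.03, and in total RNA of that strain -4.40, -4.03 and -4.50. Again every IP sample was above its limit, and no total RNA sample was. The signal was at least 5.31-fold higher in the IP (limma adjusted p = 0.00154), and the call held under each of 10 alternative settings in which the gene was tested and with each of the 6 samples left out in turn, at adjusted p up to 0.0244. Without AIN-2::GFP IP replicate 1, which leaves samples outside the sample set marked by cdc-42 and asp-6, the limma adjusted p was 0.00673. Under the filter at the 50th percentile btb-9 was too dim to be tested.

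For btb-5 the AIN-2::GFP IP gave -0.86, -0.72 and -0.38 and total RNA -2.82, -2.53 and -2.78. All 6 samples were above their limits, and the groups were apart by more than the spread within either. The difference was 2.06 ± 0.43 (limma adjusted p = 0.0121). Leaving out any 1 of 4 samples (AIN-2::GFP IP replicate 2 or 3, total RNA replicate 1 or 3) gave adjusted p of up to 0.062.

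A different picture was seen for bath-37, which was at the floor in all 6 transgenic total RNA samples and in all 3 AIN-1 IP samples. It measured -2.24, -0.28 and -4.40 in the AIN-2::GFP IP and -2.60, -1.55 and -2.09 in the GFP IP, with 2 of 3 samples above the limit in each. The AIN-2::GFP IP was at least 2.67-fold above its total RNA (limma adjusted p = 0.0268), a call that needed 5 of the 6 samples. The GFP IP was at least 2.60-fold above its own total RNA and did not pass (adjusted p = 0.139), and the test of the 2 enrichments did not pass (adjusted p = 0.991). bath-13 likewise was at least 3.01-fold higher in the AIN-2::GFP IP (adjusted p = 0.0504) and at least 2.44-fold higher in the GFP IP (adjusted p = 0.232), and neither passed.

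No BTB or MATH gene passed in the GFP IP against its total RNA in limma, where 0.0245% of all features did. An unadjusted p under 0.05 was seen for 6 genes (9.23%), against 10.9% of all features. In the test of the difference between the enrichments 0 genes passed, against 0.0245% of all features. There 4 genes (6.15%) had an unadjusted p under 0.05, against 8.02% of all features. The largest positive fitted difference was that of btb-9. The GFP IP gave -4.06, -5.74 and -5.74 for it and the promoter GFP total RNA -4.12, -5.32 and -4.49, with no sample above its limit. The fitted difference of the enrichments was 3.54 ± 0.65 (limma adjusted p = 0.0747). Of the 4 groups it combines, the AIN-2::GFP IP alone was above its limits, so the size of that difference is not a measured one. Without GFP IP replicate 1, which was brighter than the other 2, the adjusted p was 0.00836. It was 0.0131 with same-numbered samples of opposite dye as a random block, and 0.112 with them as a fixed block.

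For btb-5 the GFP IP samples were at -2.10, -3.27 and -3.32 and the total RNA at -2.74, -2.76 and -2.73. The GFP IP lay around the total RNA, whereas the AIN-2::GFP IP lay above it in all 3 samples. The difference between the enrichments was 2.22 ± 0.61 (limma adjusted p = 0.218), and 0.0482 without GFP IP replicate 1. For bath-42 the AIN-2::GFP IP gave 5.53, 4.81 and 5.04 and its total RNA 4.29, 4.32 and 3.86, a difference of 0.97 ± 0.36 (adjusted p = 0.138), and the GFP IP gave 3.63, 4.31 and 3.32 against 4.19, 4.29 and 3.86. The difference of its enrichments was 1.33 ± 0.51 (limma adjusted p = 0.437).

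In both AIN-1 tests 1 of the 65 genes, btb-9, stood above total RNA and above the preimmune IP, against 2.59% of all features. By the matching rule for AIN-2, enrichment over total RNA beyond that of the GFP IP, 0 genes passed, against 0.00818% of all features. Higher over total RNA in both AIN IPs were 2 genes, btb-5 and btb-9, against 1.74% of all features. In limma's test of the AIN-1 enrichment against the AIN-2 enrichment 0 genes passed, against 0.00818% of all features. There 5 genes (7.69%) had an unadjusted p under 0.05, against 5.69% of all features.

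The study's own definition ranks the IP to total ratio of all genes in each replicate and tests the mean rank at a threshold of 0.01, asks for signal above background, and requires the control IP to miss that mark. Computed from the same values, it gave 8 of the 101 genes for AIN-1 (7.92%), against 14.4% of all gene features. They were bath-38, bath-42, bath-47, btb-9, math-5, math-28, math-43 and math-50. For AIN-2 it gave 4 genes (3.96%), against 9.25% of all features: bath-25, bath-42, btb-5 and btb-9. Both sets hold bath-42 and btb-9.

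Of the genes named by this definition and not by the main tests, math-28 gave 0.96, 0.29 and 0.05 in the AIN-1 IP and -1.90 and -2.68 in N2 total RNA. All 5 samples were above their limits and the groups did not overlap, with a difference of 2.62 ± 0.89 (limma adjusted p = 0.0697). Its preimmune samples were at -4.24, 0.26 and -0.40, of which 1 lay within the range of the AIN-1 IP. For math-50 the AIN-1 IP gave -3.17, -3.27 and -3.44, with both N2 samples at the floor. math-5 gave -2.67, -2.63 and -2.66 with AIN-1 antibody and 3.37, -3.45 and 0.40 with preimmune serum. The fitted difference between these IPs was -2.49, which did not pass, so math-5 did not stand above its control. Its control signal exceeded N2 total RNA by 4.18 in the main test (limma adjusted p = 0.0368).

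Total RNA of the transgenic strains gave no difference for BTB and MATH genes. In limma 0 genes passed, against 0.00818% of all features, and 0 had an unadjusted p under 0.05, against 0.36% of all features. N2 total RNA differed from that of both transgenic strains in btb-19 alone among the 65 genes, against 1.04% of all features. By unadjusted p under 0.05 in limma 11 genes (16.9%) differed, against 12.9% of all features. btb-19 passed the low-signal filter narrowly, with a mean of -4.89, where btb-2 at -4.90 did not. Its N2 samples carried it past the filter, so this call is not independent of it. The gene was at the floor in all 6 transgenic samples, and N2 total RNA was at least 17-fold above it (limma adjusted p = 0.00868). Without N2 total RNA replicate 1 the bound was 2.06-fold. In total RNA of whole worms, fewer cells that express a gene and less RNA per cell cannot be told apart. With transgenic total RNA as the reference, btb-19, btb-20, bath-30 and bath-37 give no comparison with the AIN-1 or preimmune IP. For them neither these IPs nor the reference were above their limits. Their falls did not pass there, nor did that of bath-29. Of the 6 genes that fell in the AIN-1 IP against N2 total RNA, bath-2 alone was still called lower.

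Several genes were much brighter in 1 pair of same-numbered samples than in any other sample. bath-25, the gene with the largest fitted difference in the AIN-2::GFP IP (at least 19.6-fold over total RNA, limma adjusted p = 0.143), measured -1.57, 5.64 and -2.36 there and -2.53, 5.82 and -5.68 in the GFP IP. Replicate 2 of both IPs thus set its means in these 2 groups. bath-25 was above its limit in 8 samples, among them all 3 of the AIN-1 IP. Those measured -1.65, -1.29 and -2.40, with both N2 total RNA samples at the floor. In transgenic total RNA replicate 2, bath-45 measured 1.29 and 1.46, btb-12 0.55 and 2.51, and math-46 0.02 and 1.31 (AIN-2::GFP and promoter GFP strain), at least 2.02 log2 units above every other sample for each of the 3 genes.

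The 2 samples of such a pair carried opposite dyes. In 4 of the 65 genes (6.15%) both samples of a pair were at least 2 log2 units above all other samples, against 1.96% of all tested features. The bright pair itself carried bath-45, btb-12 and math-46 past the low-signal filter. Their share among the tested genes is thus not independent of that filter, and the same can hold for other features. Over all features the deviations of same-numbered samples correlated at 0.257 to 0.52 between the AIN-2::GFP and GFP IPs and at 0.591 to 0.769 between the transgenic total RNAs. Whether the samples of a pair shared an array is not given in the sources used here. None of these 4 genes passed the test in any comparison.

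**Figure D4:**
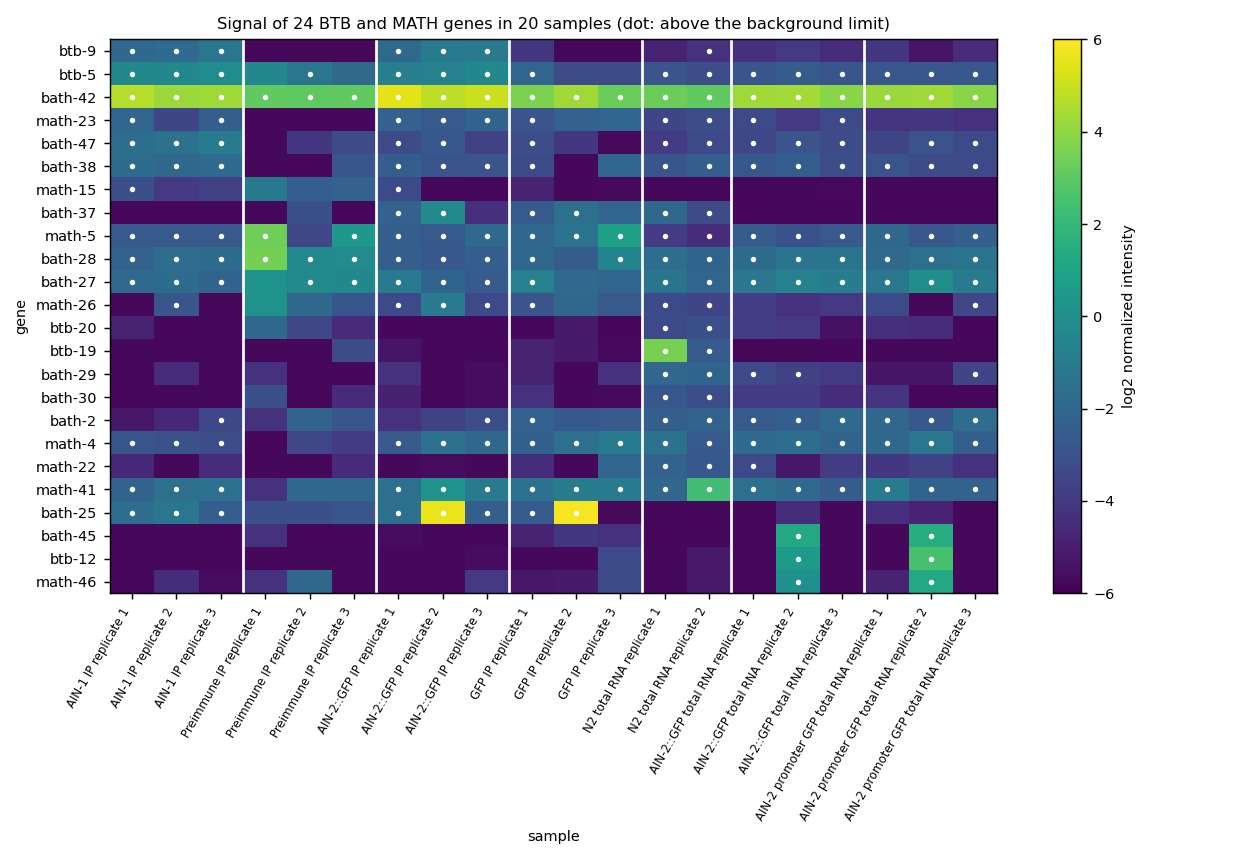
Signal (colour, log2 normalized intensity) of 24 BTB and MATH genes (rows) in the 20 samples (columns, grouped, with white lines between groups); white dots mark samples above their background limit. The row of btb-9 has dots in all 6 AIN IP samples and in N2 total RNA replicate 2, and bath-25, bath-45, btb-12 and math-46 are brightest in the 2 samples of replicate 2 of their groups.

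Features of the same gene often disagreed. Of the 101 genes 21 had more than 1 feature, with 25 further features, of which 11 passed the filter. Over the 20 samples 1 of these 11, that of math-9 (0.56), correlated with the brightest feature of its gene above 0.5. The second feature of bath-28 differed between the AIN-1 and preimmune IPs by -0.54, against -2.73 for the brightest. The features of math-40 moved apart in that comparison, by 1.18 and -3.37. In the AIN-1 IP against N2 total RNA the brightest and the dimmest of the 3 features of math-41 moved by -1.82 and -1.59. Its other feature moved by 1.18. The second feature of math-23 was too dim to be tested, with a mean of -5.74, the floor, and 0 samples above the limit. Its rise over the preimmune IP thus rests on 1 spot. btb-9, btb-5, bath-37, bath-38 and bath-42 had 1 feature each, so no second spot bears on them.

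The 7 tested pseudogenes had no call in any of the 9 comparisons made, in which 0.00818% to 13.1% of all features were called. So few genes cannot show a difference from those shares. The study's definition named the pseudogenes math-43 and math-50 for AIN-1, of which math-50 was too dim for the main test. By family, 2 of 12 btb genes rose and 2 fell in the AIN-1 IP against N2 total RNA, 0 of 25 bath genes rose and 4 fell, and 1 of 28 math genes rose and 0 fell, where 6.1% of all features rose and 5.65% fell. In the AIN-2::GFP IP against its total RNA 2 btb genes, 1 bath gene and 0 math genes rose and none fell, where 2.79% of all features rose and 2.72% fell.

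Among the partners of these proteins, cul-3, the cullin that BTB domains bind, rose in both AIN IPs. It measured 2.25, 2.23 and 1.75 in the AIN-1 IP, -1.17, -1.02 and -1.41 in the preimmune IP and -1.07 and -1.09 in N2 total RNA. The AIN-1 samples stood apart from both, by 3.18 from the preimmune IP (limma adjusted p = 0.00147) and by 3.11 ± 0.57 from total RNA (adjusted p = 0.00298). In the AIN-2::GFP IP it measured 0.77, 1.37 and 1.84, against -0.92, -0.95 and -0.24 in total RNA, a difference of 2.03 (adjusted p = 0.0286) that needed 5 of the 6 samples to pass. The difference from the GFP IP enrichment, 2.57, did not pass (adjusted p = 0.219). The AIN-1 calls of cul-3 share their control samples with those of btb-9.

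Of the list of 17 genes of the CUL-3 ligase and its activation by the ubiquitin-like protein NED-8, 14 were on the array and 12 were tested. In the AIN-1 IP against N2 total RNA cul-3 rose and ula-1, a subunit of the enzyme that activates NED-8, fell (at least 2.32-fold, limma adjusted p = 0.019), where 6.1% of all features rose and 5.65% fell. ula-1 also fell in the preimmune IP (adjusted p = 0.0208), and it did not pass between the 2 IPs (adjusted p = 0.982). Its AIN-1 call needed 4 of the 5 samples. The list's median was -0.29, against 0.11 for all features. In the AIN-2::GFP IP against its total RNA 1 of the 12 rose and 0 fell, with a median of -0.77 against 0.00. Among 8 tested genes of other BTB adaptors and katanin, kel-1, a kelch-repeat gene, rose in the AIN-1 IP by 2.25 over N2 total RNA (adjusted p = 0.0338), a call that needed 4 of the 5 samples. It was also higher than in the preimmune IP (adjusted p = 0.00158), in which it was not above the limit. hpo-9 measured 1.53, 1.97 and 1.28 in the AIN-1 IP and -5.74, -0.30 and -0.75 in the preimmune IP, a difference of 3.75 (adjusted p = 0.0231). Without preimmune IP replicate 1, which is at the floor, it was 2.13 and still passed, and the call needed AIN-1 IP replicates 1 and 2. mel-26 did not pass in the AIN-1 IP, where it differed by -1.08 from total RNA (adjusted p = 0.335).

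Genes of the other ubiquitin ligase families were compared in the same way. Of 19 tested genes of the other cullins and of Skp1-related proteins, which link F-box proteins to a cullin, 0 rose and 2 fell (10.5%) in the AIN-1 IP against N2 total RNA, where 5.65% of all features fell. skr-1 differed by -2.18 (limma adjusted p = 0.00414), and skr-15 was at least 2.47-fold lower (adjusted p = 0.0169). In the preimmune IP 3 of the 19 fell, skr-1 (adjusted p = 0.0149), skr-15 (adjusted p = 0.0384) and skr-2 (adjusted p = 0.0112). Between the AIN-1 and preimmune IPs skr-1 (adjusted p = 0.496) and skr-15 (adjusted p = 0.663) did not pass. The F-box genes of the fbxa, fbxb and fbxc families encode substrate adaptors that are also numerous in worms. Of 148 tested genes of these families 13 rose (8.78%) and 1 fell (0.676%) in the AIN-1 IP against N2 total RNA. Over all features 6.1% rose and 5.65% fell there, and the medians were 0.40 for the F-box genes and 0.11 for all features. In the preimmune IP against N2 total RNA 7 rose and 4 fell, with medians of 0.31 for the F-box genes and -0.41 for all features. Between the AIN-1 and preimmune IPs 9 were higher and 4 lower, with medians of 0.04 and 0.42. In the AIN-2::GFP IP against its total RNA 0 F-box genes rose, 3 fell (2.03%, against 2.72% of all features) and the median was 0.26 against 0.00.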

How the data were processed

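Spot intensity was deposited on a linear scale, after subtraction of background and division by the mean of the sample by the authors. The division shows in the values: each sample's numbers turn whole (within 0.001) under 1 multiplier, which is its mean signal in scanner units. Per the labels' protocols, RNA went through 1 amplification before labelling, and dyes were flipped between replicates. The scanner, image software and type of background are not stated in the sources used. No 2 samples held identical values.

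Intensities of 23232 features were quantile normalized, floored at the 10th percentile of the positive values (0.0187 sample means, which held 31% of gene values) and put on a log2 scale. Features with 1 gene and a mean above the 30th percentile entered a limma 3.58.1 model (R 4.3.3), with a mean for each of 7 groups and a dye term. The 20 samples entered 1 fit and share its residual variance. P-values are two-sided, with Benjamini-Hochberg adjustment over 12222 features, and the number of samples limits the precision of every comparison. The background limit per sample was the median plus 2 MADs of chemoreceptor features on the deposited scale, since the study's empty spots are not named in the probe table. The study's own rank test used that limit too. limma was tested on simulated data before use, and figures were drawn with matplotlib.

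Same-numbered samples of opposite dye (AIN-1 and preimmune IP, AIN-2::GFP and GFP IP, and both transgenic total RNAs) deviated together in every pair, at correlations over 0.1, and were treated as paired in an alternative fit. The numbers of an IP and its total RNA did not pair (0.0229 to 0.113). Alternatives covered scaling, floor, filter, dye, blocks, the samples in the fit, the N2 reference and leaving out each sample. The sample set marked by cdc-42 and asp-6 and the block by pair were chosen after earlier results were seen, as were the genes and the lists. Named genes were every gene of the families past the threshold in a comparison, those with the largest and lowest differences, the brightest in total RNA, those with several features, and the genes past the threshold in the pathway lists, of which the text gives those the results turn on. Gene names come from the platform's probe table, and RefSeq (WBcel235) was used for chromosome, gene type and neighbours only. No sequence or protein identity was used here.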

Additional observations from a re-analysis of the deposited data

How the results depend on the processing

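Of 31 calls on the genes of the 3 families, 6 held without any 1 sample of their comparison. Of these 1, btb-9 for AIN-2::GFP IP over its total RNA, also held under every other setting in which the gene was tested. For btb-19 in the preimmune IP the fitted value was 0.92 with transgenic total RNA as the reference, but neither group was above its limits there, so it has no direction. The dim signal of the control IPs limits every comparison that uses them.

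Numbers of genes called under alternatives follow, against 9 for AIN-1 IP over N2 total RNA, 10 for preimmune IP over N2 total RNA, 9 for AIN-1 IP over preimmune IP, 3 for AIN-2::GFP IP over its total RNA and 0 in the 3 other comparisons. With only the compared groups these first 4 comparisons gave 17, 0, 0 and 9, which uses fewer samples. Of all 12222 features the same fits called 4218, 0, 0 and 3232, so the genes were not called more often than other features. The sample set marked by cdc-42 and asp-6 as a covariate gave 4 (AIN-1) and 5 (preimmune) over N2 total RNA. Over their own total RNA it gave 5 for AIN-2::GFP and 1 (math-23) for GFP. A random block for possibly shared arrays (consensus correlation 0.279) gave 5 (AIN-1) and 4 (preimmune) over N2 total RNA and 1 for the AIN-2::GFP minus GFP enrichment. That last comparison also gave 1 with the floor at the 25th percentile and 1 with no filter, in each case btb-9. The filter at the 50th percentile gave 4 for AIN-1 IP over N2 total RNA and 1 for AIN-2::GFP IP over its total RNA, with 32 genes tested in place of 65. The cause of the other changes was not tested.

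With a replicate block by number, counts were 9, 11, 10 and 4 in the same 4 comparisons and 0 in the others, so the block moved no count by more than 1.5 times. With the replicate block by pair, 14 genes and 2023 of 12222 features passed for AIN-1 IP over preimmune IP. In the enrichment difference and the total RNAs 0 genes passed. No call made without the pair block was lost with it.

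Leaving out 1 sample gave 2 to 6 calls for AIN-1 IP over N2 total RNA, 2 to 15 for preimmune IP over N2 total RNA, 3 to 14 for AIN-1 IP over preimmune IP and 1 to 2 for AIN-2::GFP IP over total RNA. It gave 0 to 2 for GFP IP over total RNA and 0 to 2 for the enrichment difference, in both cases 2 without GFP IP replicate 1, and 0 in the transgenic total RNAs.

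Genes higher in both AIN-1 tests numbered 1 (btb-9). They were 0 with mean scaling alone, with the sample set marked by cdc-42 and asp-6 as a covariate and with only the compared groups. With cyclic loess, no filter, no dye term or the filter at the 50th percentile they were 2. The floor at the 25th percentile and transgenic total RNA as the reference each gave 3, and the study's definition gave 8. Leaving out 1 sample gave 1 to 4 (4 without preimmune IP replicate 1). Genes passing both AIN-2 tests numbered 0, and 1 (btb-9) with the floor at the 25th percentile, with no filter and with the random block. They were 4 by the study's definition and 0 to 2 when 1 sample was left out.

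Of 13 calls on pathway genes, 2 held without any 1 sample, those of cul-3 and kel-1 for AIN-1 IP over preimmune IP, and both were lost with only the compared groups.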
